A study of Mus musculus with 4 samples.

Results

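The bone morphogenetic protein (BMP) and SMAD signalling genes are 10 genes chosen by name, namely the ligands Bmp4 and Bmp7, the receptors Bmpr1a and Bmpr2, the intracellular SMADs Smad1, Smad4, Smad5, Smad6 and Smad7, and the target gene Id1. All 10 were found among the 22298 genes of the deposited RNA-seq count table, and all 10 were among the 12888 genes with enough counts to be tested. The RNA-seq was of brown adipose tissue (BAT) from mouse fetuses (labelled C57BL/6, and C57BL/6J in the study's methods) at E18.5, the last day of gestation. Control dams drank tap water and fructose dams drank 20% (w/v) fructose water while pregnant, and the labels name no transgene or other allele. There were 2 libraries in each group and 4 in all, each labelled male. The comparison asks how fructose in the mother's drinking water went with expression of these genes in the fetal BAT. How many fetuses or litters went into a library, and whether the replicates were separate animals, is not given in the sources used here, so the p-values measure only the spread between these libraries.

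BMPs are secreted ligands of the TGF-beta superfamily. A BMP dimer brings type I and type II receptor kinases together, the type II receptor phosphorylates the type I receptor, and the type I receptor phosphorylates SMAD1, SMAD5 and SMAD9, which enter the nucleus with SMAD4 and act on target genes such as Id1. SMAD6 and SMAD7 inhibit the pathway and are themselves BMP or TGF-beta targets. In brown fat BMP7 is known as an inducer of the brown adipocyte programme, and BMP4 and BMPR1A are known to act on the commitment of progenitors to the adipose lineage.

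Bmpr2, the type II BMP receptor, had the highest rise of the 10 genes, from 7.75 to 19.6 CPM (group means of CPM, a gene's share of all counts in a library, with totals adjusted by TMM), a log2 fold change of 1.34 ± 0.14 (SE, n = 2 libraries per group). Bmpr1a, a type I receptor, rose by 0.73 on the log2 scale and Smad5, a receptor-activated SMAD, by 0.31. No member fell at the same threshold, an adjusted p under 0.05 in the quasi-likelihood test of edgeR, adjusted by Benjamini-Hochberg over all tested genes. The other 7 genes did not pass it. DESeq2 called 2 of the 10 higher and 0 lower, beside 1280 higher and 1084 lower of the 12315 genes it tested. In edgeR 1 gene, Smad6, was lower at an unadjusted p under 0.05. The 3 genes called higher by edgeR, of 10, stand beside 15.5% of all tested genes called higher. The 0 called lower stand beside 10.7% called lower (26.2% in either direction). With the trends of gene length and GC content described below removed, 1 of the 10, Bmpr2, was called higher beside 5.53% of all tested genes, and Bmpr1a and Smad5 did not pass. The median log2 fold change of the 10 genes was 0.26, and that of all tested genes was 0.0025 (interquartile range -0.21 to 0.34).

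The promoter sequences of 4 of these genes are shown because 3 of them belong to the genes called higher and 1, of Smad6, holds a palindrome of the SMAD recognition letters. Each window runs from 250 bases before to 50 bases after a RefSeq transcript start (300 bases, build GRCm38.p6), on the gene's own strand, 5′ to 3′. The windows are Bmpr1a at chr14:34502497-34502796 (minus strand), Bmpr2 at chr1:59764029-59764328 (plus strand), Smad5 at chr13:56702760-56703059 (plus strand) and Smad6 at chr9:64022010-64022309 (minus strand). Capitals mark a match to GGCGCC, a GC-rich letter string of SMAD1 and SMAD5 sites, in the first 3 sequences, and to GTCTAGAC, the SMAD palindrome, in the last.
Bmpr1a: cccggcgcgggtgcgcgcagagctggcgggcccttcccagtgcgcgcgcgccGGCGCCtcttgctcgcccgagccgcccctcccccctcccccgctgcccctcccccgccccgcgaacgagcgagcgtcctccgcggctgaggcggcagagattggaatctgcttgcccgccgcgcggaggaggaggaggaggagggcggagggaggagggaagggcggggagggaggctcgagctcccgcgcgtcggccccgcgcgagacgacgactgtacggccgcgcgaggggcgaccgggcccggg
Bmpr2: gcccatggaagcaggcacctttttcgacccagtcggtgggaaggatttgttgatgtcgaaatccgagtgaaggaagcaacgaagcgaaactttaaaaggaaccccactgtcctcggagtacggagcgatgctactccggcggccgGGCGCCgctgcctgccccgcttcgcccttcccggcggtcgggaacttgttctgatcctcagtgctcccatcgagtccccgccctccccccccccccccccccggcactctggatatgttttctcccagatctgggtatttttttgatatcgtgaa
Smad5: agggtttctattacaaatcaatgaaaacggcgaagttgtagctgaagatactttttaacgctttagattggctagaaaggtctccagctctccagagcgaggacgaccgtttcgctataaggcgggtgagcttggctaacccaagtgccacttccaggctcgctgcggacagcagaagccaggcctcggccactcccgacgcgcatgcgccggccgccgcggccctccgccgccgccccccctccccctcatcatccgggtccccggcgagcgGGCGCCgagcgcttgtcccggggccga
Smad6: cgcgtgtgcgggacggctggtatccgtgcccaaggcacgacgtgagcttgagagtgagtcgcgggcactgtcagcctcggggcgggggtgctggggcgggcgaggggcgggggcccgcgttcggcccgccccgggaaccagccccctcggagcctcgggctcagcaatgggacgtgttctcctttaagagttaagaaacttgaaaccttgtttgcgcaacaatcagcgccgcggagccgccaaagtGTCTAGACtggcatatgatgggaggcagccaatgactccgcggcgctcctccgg
The strings GTCTAGAC, GGCGCC and CAGAC were searched on both strands, GTCTAGAC and GGCGCC being their own reverse complements and none of the 3 containing another. GGCGCC was in 11.9% of the 32851 RefSeq promoter windows of this length, GTCTAGAC in 0.213% and CAGAC in 49.6%. RefSeq windows were given for 6 of the 10 genes, and those of Bmp4 and Smad1 held none of the 3 strings. Smad5 had 3 windows, of which another also held GGCGCC and the last held 1 CAGAC. The GC content of the 4 windows printed was 79.3% for Bmpr1a, 59.3% for Bmpr2, 63.0% for Smad5 and 66.3% for Smad6, beside a median of 52.7% over all windows. The windows of Bmpr1a and Bmpr2 lie wholly inside the gene coordinates given below, which come from a different annotation and start further upstream. These matches describe the letters only, and binding was not measured.

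The libraries held 18542897 to 23645147 counts on genes, and a gene with 0 counts could be at up to 0.127 to 0.162 CPM in them (the level of 3 counts before TMM, a limit for counting error alone). Replicates of a group were further apart than sampling noise, and their chi-square over genes, divided by its degrees of freedom, was 13.1 for control and 8.45 for fructose. The 4 Y-linked genes Ddx3y, Eif2s3y, Uty and Kdm5d summed to 422 and 390 counts in control and to 0 in both fructose libraries, which goes against the male label of the latter. That difference and the maternal treatment cannot be told apart in any value below, and none of the 10 genes is on the X or Y chromosome. Genes encoded by the mitochondrial genome held 5.89% and 6.49% of control counts and 10.8% and 11.2% of fructose counts. All 10 brown adipocyte markers were detected, with Ucp1, the uncoupling protein of BAT, at 9606 to 12425 CPM. The summed level of the 10 skeletal muscle markers was 239.6 and 326.6 CPM in control and 769.1 and 568.0 CPM in fructose, and all 10 were called higher. The part of each of these differences in the results was not tested, and in bulk tissue fewer cells of a type and less RNA per cell cannot be told apart.

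Across 12884 tested genes with a known exon length, the log2 fold change went up with exon length (Spearman's rho 0.46) and down with GC content (rho -0.50). Between replicates the rho was 0.017 for length and 0.13 for GC content in control, against 0.17 and -0.20 in fructose. Genes are not independent replicates, and these correlations are descriptions. Since Bmpr2 has the longest exons and Id1 the shortest exons of the 10 genes, each change is also given with both trends taken out of every library. With the trends removed, 5.53% of all tested genes were called higher and 6.04% lower, and their median log2 fold change was -0.0036.

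**Figure D1:**
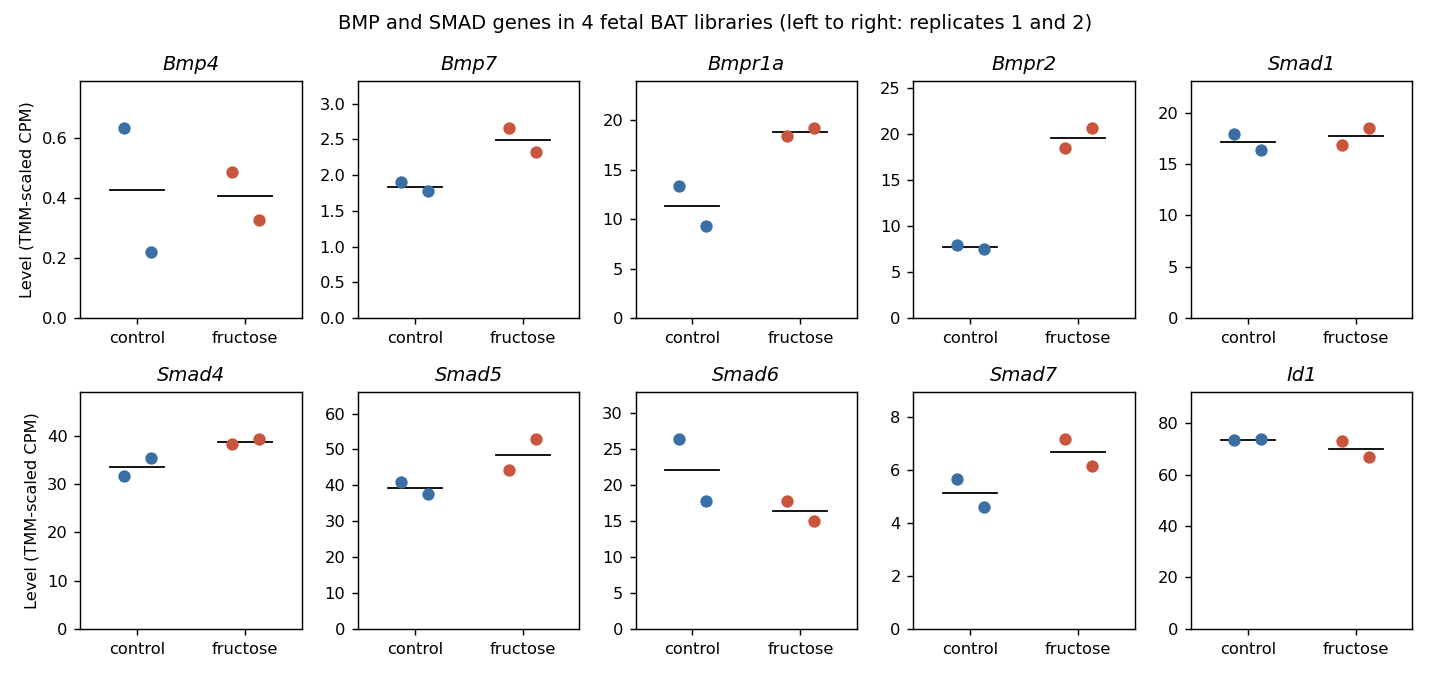
Level of each of the 10 genes in each library, in TMM-scaled CPM on a linear axis from 0. Points are libraries, with replicate 1 to the left of replicate 2, and lines are group means. Both fructose libraries sit above both control libraries for Bmp7, Bmpr1a, Bmpr2, Smad4, Smad5 and Smad7 and below them for Id1.

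The ligand genes were the least expressed of the group. Bmp4, a ligand with a known role in adipose commitment (chromosome 14, 46383520 to 46390669, GRCm38), had 12 and 4 counts in control and 11 and 8 in fructose. Its level was 0.633 and 0.222 CPM in control against 0.486 and 0.327 CPM in fructose, so the groups overlapped. With so few counts its log2 fold change of -0.092 had a 95% interval of -1.47 to 1.29 (edgeR adjusted p = 0.931), and a difference within that interval was not detectable at this depth. Gm15217, a gene on the opposite strand that shares 89 bases of the Bmp4 exons, had 0 counts in all 4 libraries. Bmp7, the ligand known for driving the brown adipocyte programme (chromosome 2, 172868012 to 172940321), was at 1.90 and 1.77 CPM in control and 2.65 and 2.33 CPM in fructose. Both fructose libraries lay above both control libraries, as for 33.4% of all tested genes. The log2 fold change of Bmp7 was 0.44 ± 0.29 (SE) and did not pass the test (edgeR adjusted p = 0.288), its 95% interval running from -0.19 to 1.06.

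Among the receptors, Bmpr1a encodes ALK3, a type I receptor kinase for BMP2 and BMP4 (chromosome 14, 34410734 to 34503341). It had 253 and 167 counts in control and 415 and 469 in fructose, or 13.4 and 9.26 CPM against 18.3 and 19.1 CPM. The control libraries stood further apart (SD 2.89 CPM) than the fructose libraries (SD 0.563 CPM), and the groups did not overlap. Bmpr1a rose by 0.73 ± 0.17 on the log2 scale (SE, n = 2 per group), a fold of 1.66 with a 95% interval of 1.29 to 2.13 (edgeR adjusted p = 0.00849). Genes of its exon length and GC content moved by 0.44 between the groups. With both trends removed the log2 fold change was 0.30 and no longer passed (adjusted p = 0.222). It still passed with the length trend alone removed (0.60, adjusted p = 0.0187) but not with the GC content trend alone removed (0.30, adjusted p = 0.183). Without control replicate 1 it was 1.02 and without control replicate 2 it was 0.49, and it passed in both. An antisense gene, Gm17110, shares 290 bases or 4.57% of the Bmpr1a exons, and whether the counting used the strand is not given in the sources used here.

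Bmpr2, the type II receptor kinase that binds BMP ligands (chromosome 1, 59763400 to 59879014), had the lowest adjusted p of the 10 genes. It had 151 and 136 counts in control and 419 and 505 in fructose, or 7.97 and 7.54 CPM against 18.53 and 20.6 CPM. Its fold of 2.52 had a 95% interval of 2.04 to 3.13 (edgeR adjusted p = 0.000202), and its log2 fold change was higher than that of 97.4% of all tested genes. Its exons span 17983 bases with a GC content of 41.0%, and genes of that length and GC content moved by 0.80 on the log2 scale. With the trends removed, Bmpr2 was the member that still passed, at a log2 fold change of 0.54 (adjusted p = 0.0232). It passed in 15 of 15 alternatives, with values from 0.54 to 1.41.

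**Figure D2:**
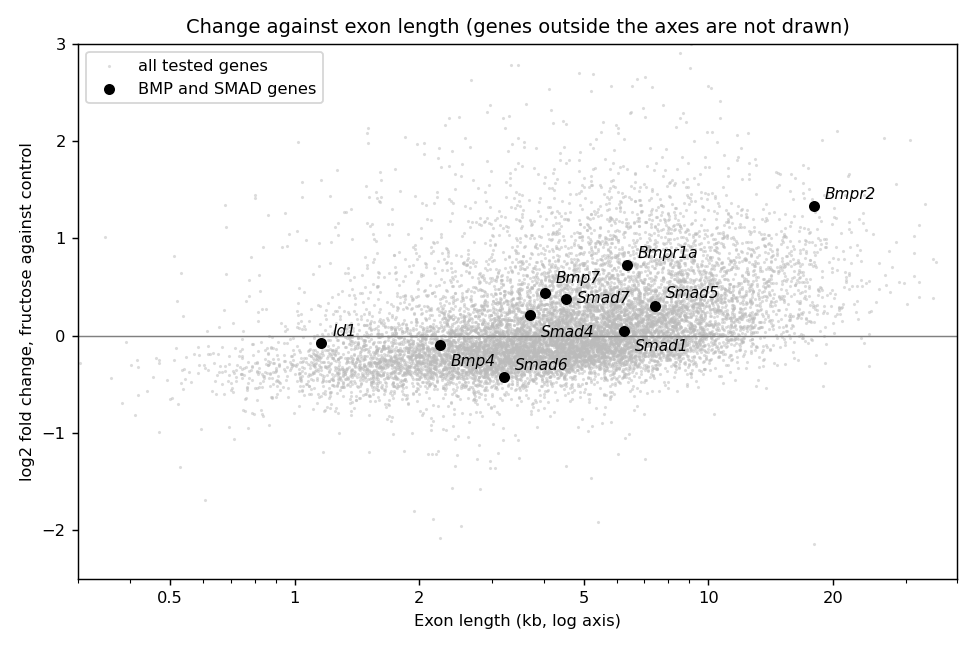
Log2 fold change (fructose against control) of every tested gene against its exon length in kb (log axis), with the 10 genes in black. Bmpr2 lies at 18.0 kb and Id1 at 1.16 kb, and the grey cloud of all genes rises from left to right.

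The receptor-activated SMADs Smad1 and Smad5 are close paralogs that carry the BMP signal. Smad1 (chromosome 8, 79338395 to 79399518) was at 17.9 and 16.4 CPM in control and 16.9 and 18.45 CPM in fructose. These groups overlapped, and the log2 fold change of Smad1 was 0.045 with a 95% interval of -0.23 to 0.32 (edgeR adjusted p = 0.823). Smad5 (chromosome 13, 56703010 to 56742377) was at 40.9 and 37.5 CPM in control and 44.2 and 52.9 CPM in fructose. The fructose libraries were both above the control libraries and further apart from each other than the controls were. Smad5 rose by 0.31 ± 0.11 on the log2 scale, a fold of 1.24 (95% interval 1.06 to 1.45), close to the threshold (edgeR adjusted p = 0.0486). The call was lost without control replicate 2 (log2 fold change 0.25, adjusted p = 0.0940), without fructose replicate 2 (0.18, adjusted p = 0.427), with DESeq2 (0.29, adjusted p = 0.132) and with the trends removed (0.021, adjusted p = 0.918). Reads that match both paralogs could be divided between them in a way the sources used here do not give. A small RNA gene, Gm27301, overlaps 100 bases of the Smad5 exons.

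Smad4, the partner of all receptor-activated SMADs, was at 31.7 and 35.5 CPM in control and 38.3 and 39.3 CPM in fructose. Its groups did not overlap, but the log2 fold change of 0.21 ± 0.097 did not pass (95% interval -0.0013 to 0.42, edgeR adjusted p = 0.129). With the trends removed it was 0.24 (adjusted p = 0.127), close to the value without removal (exons of 3712 bases and 49.4% GC).

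The inhibitory SMADs had log2 fold changes of opposite sign. Smad6, which blocks BMP receptors and SMAD1 (chromosome 9, 63953076 to 64022059), was at 26.3 and 17.7 CPM in control and 17.8 and 14.98 CPM in fructose. Control replicate 1 stood above the other 3 libraries, and control replicate 2 and fructose replicate 1 were nearly equal, so the groups overlapped. The log2 fold change of -0.43 ± 0.17 had an unadjusted p of 0.0302 and did not pass after adjustment (edgeR adjusted p = 0.0893). It was -0.11 (adjusted p = 0.648) without control replicate 1, -0.68 (adjusted p = 5.95e-05) without control replicate 2, -0.55 (adjusted p = 0.0311) without fructose replicate 1 and -0.30 (adjusted p = 0.304) without fructose replicate 2, so that its side of the threshold depended on single libraries. With the trends removed it was -0.18 (adjusted p = 0.532). Smad7, which inhibits both the BMP and the TGF-beta branch, was at 5.65 and 4.60 CPM in control and 7.16 and 6.16 CPM in fructose. Its groups did not overlap, and its log2 fold change of 0.38 ± 0.20 did not pass (edgeR adjusted p = 0.183) and was 0.50 (adjusted p = 0.113) with the trends removed. The difference between the changes of Smad6 and Smad7 was not tested.

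Id1, a transcriptional inhibitor and direct target of BMP SMADs, is a short gene (chromosome 2, 152736251 to 152737410, 1160 bases of exon). It had 1390 and 1330 counts in control and 1648 and 1638 in fructose, the highest of the 10 genes, or 73.4 and 73.7 CPM against 72.9 and 66.9 CPM. Both fructose libraries lay below both control libraries, as for 31.6% of all tested genes, with fructose replicate 1 within 1 CPM of the controls. The log2 fold change of Id1 was -0.074 ± 0.084 with a 95% interval of -0.26 to 0.11 (edgeR adjusted p = 0.546). Genes of its length and GC content moved by -0.32, and with the trends removed Id1 turned to 0.25 (adjusted p = 0.0720), so no direction is given for it.

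**Figure D3:**
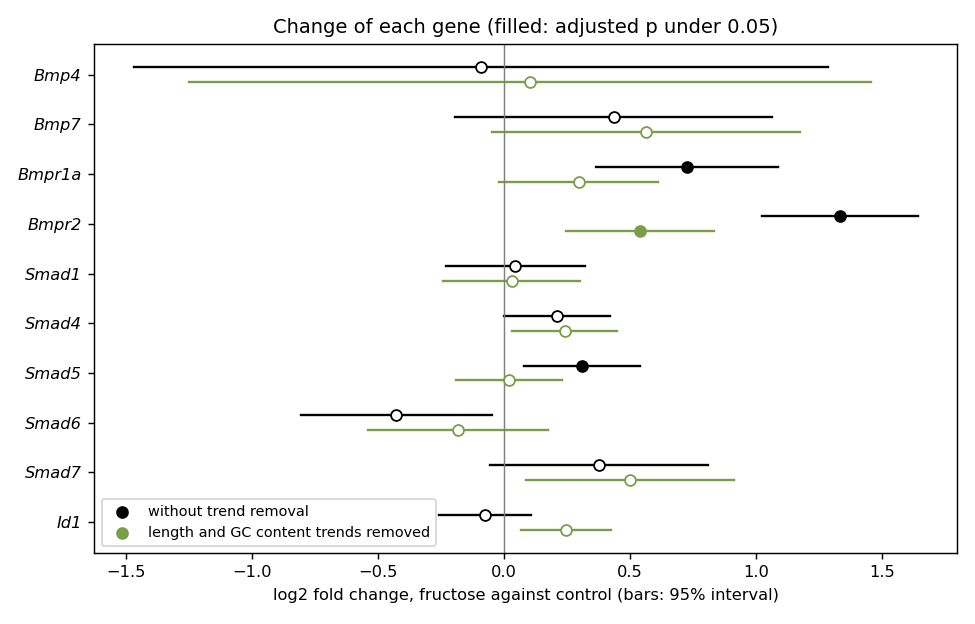
Log2 fold change (fructose against control) of the 10 genes with its 95% interval, without trend removal in black and after removal of both trends in green. Filled points have an adjusted p under 0.05. Bmpr1a, Bmpr2 and Smad5 are filled in black, and Bmpr2, at 0.54, is the filled green point.

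Of the 10 genes, 6 had both fructose libraries above both controls, 1 had both below and 3 overlapped. All tested genes gave 33.4% above and 31.6% below, or 65.1% with no overlap. At the thresholds of the study's methods, an unadjusted p under 0.05 and a fold change above 1.3, Bmpr1a and Bmpr2 were higher and Smad6 was lower, beside 17.6% of all tested genes higher and 6.18% lower (23.8% in either direction). An unadjusted p under 0.05 alone was reached by 3 members higher and by Smad6 lower, beside 21.5% and 17.8% of all tested genes. Without trend removal, 7 of the 10 log2 fold changes were above 0. After trend removal 9 were, with a median of 0.24 beside -0.0036 over all tested genes, and 1 was called higher. Among the 9 were Smad5 (0.021), Smad1 (0.031) and Bmp4 (0.10), and this count was not tested.

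To compare levels between genes, CPM was divided by exon length. On this scale Id1 was the highest, at 61.8 CPM per kb on average over the 4 libraries (range 57.6 to 63.6). Smad4 followed at 9.75 CPM per kb, then Smad6 at 5.99 and Smad5 at 5.91, which did not separate from each other, and Smad1 at 2.78. The receptors and Smad7 came next, with Bmpr1a at 2.37, Smad7 at 1.304 and Bmpr2 at 0.760 CPM per kb. The ligands were last by this average, with Bmp7 at 0.538 and Bmp4 at 0.186. By group mean, Bmpr2 was below Bmp7 in control (0.431 against 0.457 CPM per kb) and above it in fructose (1.09 against 0.620). The ranges over libraries overlapped from Smad1 through Bmpr1a, Smad7 and Bmpr2 to Bmp7 for each pair of neighbours, and were apart between Id1 and Smad4, Smad4 and Smad6, Smad5 and Smad1, and Bmp7 and Bmp4. With the longest annotated transcript in place of all exons, Smad5 stood above Smad6, and Smad1 moved to 4.61 CPM per kb and no longer overlapped Bmpr1a.

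**Figure D4:**
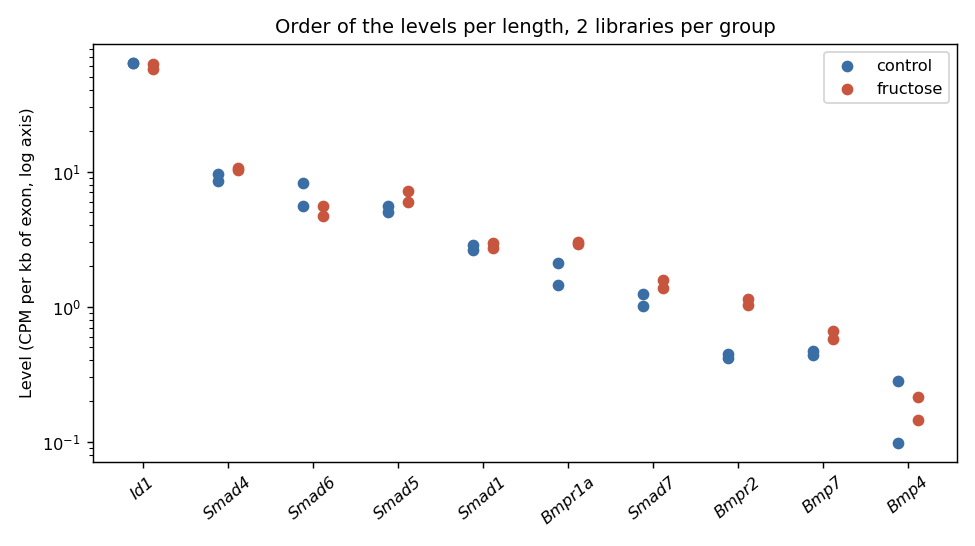
CPM per kb of exon (log axis) of the 10 genes in the 2 control and 2 fructose libraries, ordered by the mean of all 4. Id1 sits between 57.6 and 63.6 and Bmp4 between 0.0987 and 0.282.

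The balance between members was described with 5 ratios of CPM per kb within a library, with no test. Type II to type I receptor, Bmpr2 to Bmpr1a, was 0.211 and 0.288 in control and 0.357 and 0.380 in fructose. Thus Bmpr2 remained below Bmpr1a in all 4 libraries and was closer to it in fructose. Smad5 to Smad1 was 1.93 in both control libraries, against 2.21 and 2.42 for fructose. Among inhibitors, Smad6 to Smad7 was 6.58 and 5.42 in control and 3.51 and 3.43 in fructose. Smad6 to Smad1 was 2.88 and 2.11 in control and 2.06 and 1.59 in fructose, where control replicate 2 and fructose replicate 1 nearly met. Smad7 to Smad1 was 0.437 and 0.390 in control and 0.587 and 0.463 in fructose. All 5 ratios still hold the length and GC content trends. After their removal, the log2 fold changes of Smad5 and Smad1 were nearly equal (0.021 and 0.031), and those of Bmpr2 and Bmpr1a were 0.54 and 0.30. Those of Smad6 and Smad7 were -0.18 and 0.50.

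The wider pathway was read from 6 further lists with 89 genes, of which 69 could be tested. In them, 11 genes were called higher (15.9%, beside 15.5% of all tested genes) and 3 lower (4.35%, beside 10.7%). After trend removal the counts were 6 (8.7%, beside 5.53%) and 4 (5.8%, beside 6.04%). In the list directions given below with a count of 0, DESeq2 also called 0, and 1 gene, the co-receptor gene Eng, was lower at an unadjusted p under 0.05 in edgeR. The other BMP and GDF ligands were mostly near 0, with 9 of 15 at or under 3 counts in every library. Bmp6 was the highest of the list, at 19.2 and 19.6 CPM in control and 15.7 and 19.0 CPM in fructose. Its log2 fold change of -0.16 did not pass (edgeR adjusted p = 0.408), and it was named after its values were seen. With the trends removed Bmp6 was at 0.022 (adjusted p = 0.941), so no direction is given for it. Of the 6 genes tested, 1 was lower, and the median log2 fold change was -0.27. That gene was Gdf5, a growth factor of joint and cartilage development, at 7.49 and 8.26 CPM in control and 5.66 and 5.23 CPM in fructose. Its log2 fold change of -0.53 ± 0.18 was close to the threshold (edgeR adjusted p = 0.0460). The call was lost without control replicate 2 (adjusted p = 0.143), fructose replicate 1 (0.106) or fructose replicate 2 (0.241), with DESeq2 (0.154) and with the trends removed (0.320).

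Of the 10 other BMP receptors and co-receptors, 2 were called higher and 0 lower, at a median log2 fold change of -0.04. Acvr2a, a type II receptor shared by BMPs and activins, was at 2.85 and 1.89 CPM in control and 5.75 and 6.98 CPM in fructose. It rose by 1.42 ± 0.25 on the log2 scale (edgeR adjusted p = 0.00252) and still passed with the trends removed (0.94, adjusted p = 0.0212). Hfe2, which encodes the BMP co-receptor hemojuvelin of liver and skeletal muscle, was at 0.739 and 1.28 CPM in control and 3.27 and 1.92 CPM in fructose. Its log2 fold change was 1.36 ± 0.39 (edgeR adjusted p = 0.0251), and 1.60 with the trends removed (adjusted p = 0.0182). It did not pass without fructose replicate 1 (0.93, adjusted p = 0.220) or with DESeq2 (adjusted p = 0.0741). Fructose replicate 1 also had the highest summed level of skeletal muscle markers, 769.1 CPM, and the part of muscle RNA in the Hfe2 value was not tested.

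Of 18 extracellular antagonists and modulators, 12 were tested, 2 were called higher and 0 lower, at a median of 0.04. Crim1, a membrane protein that binds BMPs, was at 6.49 and 4.88 CPM in control and 11.3 and 12.9 CPM in fructose. It rose by 1.09 ± 0.18 on the log2 scale (edgeR adjusted p = 0.00177), a value that hardly moved with the trends removed (1.05, adjusted p = 0.00313). Twsg1, which encodes the secreted BMP-binding protein twisted gastrulation, rose from 13.3 and 13.1 CPM to 18.6 and 20.9 CPM, by 0.58 ± 0.13 (edgeR adjusted p = 0.00767). Twsg1 also passed with both trends removed (0.42, adjusted p = 0.0470), but not with the GC content trend alone removed (0.39, adjusted p = 0.0501). The call was also lost without fructose replicate 2 (0.50).

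Of 18 intracellular modulators, 17 were tested, 4 were called higher and 1 lower, at a median of 0.14. Map3k7, the kinase TAK1 of the SMAD-independent branch, was at 15.8 and 17.2 CPM in control and 28.3 and 26.8 CPM in fructose. It rose by 0.74 ± 0.11 (edgeR adjusted p = 0.00128) and still passed with the trends removed (0.52, adjusted p = 0.0144). Usp15, a deubiquitinase that acts on receptor-activated SMADs, rose by 1.08, Skil, a SMAD co-repressor, by 0.83 and Zfyve9, an anchor protein for SMADs at the endosome, by 0.58 on the log2 scale (edgeR adjusted p = 0.000693, 0.00151 and 0.0113). These 3 did not pass with the trends removed (adjusted p = 0.0874, 0.228 and 0.0749). The gene called lower was Fkbp1a, which encodes a protein that holds type I receptors inactive, at a log2 fold change of -0.29 (edgeR adjusted p = 0.0344). It was named after its values were seen and did not pass with the trends removed (adjusted p = 0.278). With the trends removed, the list had 1 gene called higher, Map3k7, and 3 lower, beside 5.53% and 6.04% of all tested genes. Its median was then 0.02. The 3 were Ppm1a (-0.59, edgeR adjusted p = 0.00113), Nedd4l (-0.37, adjusted p = 0.0420) and Bambi, described below. Without trend removal Ppm1a was at -0.086 (edgeR adjusted p = 0.449) and Nedd4l at 0.14 (adjusted p = 0.345). The sign of Nedd4l thus depended on the removal, and no direction is given for it. Ppm1a and Nedd4l were named after their values were seen.

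Of 10 other BMP target genes, 8 were tested, 0 were called higher and 1 lower, at a median of -0.07. Msx1, a homeobox target of BMPs, was at 1.48 and 1.77 CPM in control and 0.840 and 0.572 CPM in fructose, a log2 fold change of -1.20 ± 0.40 (edgeR adjusted p = 0.0431). It did not pass without control replicate 2 (-1.07, adjusted p = 0.101), fructose replicate 1 (-1.50, adjusted p = 0.0782) or fructose replicate 2 (-0.94, adjusted p = 0.288), with DESeq2 (adjusted p = 0.181) or with the trends removed (adjusted p = 0.130). Id2 and Id3, relatives of Id1 in this list, had values of 0.19 and -0.14 on the log2 scale. Neither passed (edgeR adjusted p = 0.267 and 0.313), and both were added after their values were seen. With the trends removed they were at 0.16 and 0.12 (adjusted p = 0.473 and 0.446), so no direction is given for Id3. The median of the list was then 0.14.

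In the TGF-beta and activin branch, 16 of 18 genes were tested, 3 were called higher and 0 lower, at a median of -0.0008. With the trends removed, 1 was called higher and 1 lower, beside 5.53% and 6.04% of all tested genes. The median of the list was then 0.07. Acvr1c, which encodes the type I receptor ALK7 of adipose tissue, was at 18.0 and 14.7 CPM in control and 28.5 and 39.5 CPM in fructose. It rose by 1.05 ± 0.16 (edgeR adjusted p = 0.00109), and by 0.45 with the trends removed (adjusted p = 0.0478). The ligand gene Tgfb2 rose by 1.21 ± 0.41 (adjusted p = 0.0495) and the type I receptor gene Tgfbr1 by 0.58 ± 0.19 (adjusted p = 0.0409), neither of which passed with the trends removed (adjusted p = 0.109 and 0.708). Tgfb2 was at 1.97 without control replicate 2 and failed without control replicate 1 (0.70, adjusted p = 0.217), fructose replicate 1 (adjusted p = 0.0731) or fructose replicate 2 (adjusted p = 0.169). Tgfbr1 failed without control replicate 2 (0.39, adjusted p = 0.195), fructose replicate 1 (adjusted p = 0.112) or fructose replicate 2 (adjusted p = 0.120). Both failed with DESeq2 (adjusted p = 0.164 and 0.142).

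**Figure D5:**
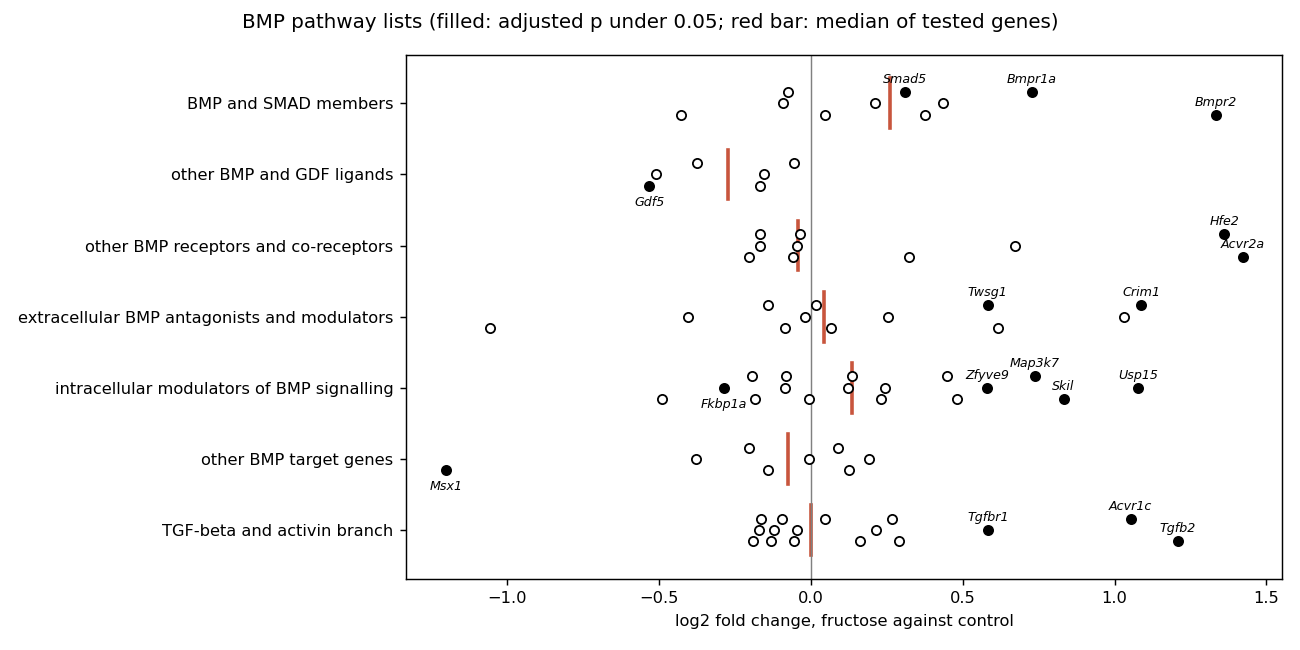
Log2 fold change (fructose against control) of the tested genes of each list, with genes at an adjusted p under 0.05 filled and named and the list median as a red bar. The medians run from -0.27 for the other BMP and GDF ligands to 0.26 for the 10 BMP and SMAD genes.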

How the data were processed

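RNA-seq counts of 4 fetal BAT libraries (2 control, 2 fructose) were analysed. The deposited values are raw read counts per gene with no normalization, made by the authors with Fastp, Bowtie2 2.0.0.5, TopHat2 2.0.0 and StringTie 2.2.0 on mm10 per the labels and methods. The counting tool, its use of strand and its treatment of reads shared by paralogs are not given in the sources used here. Gene symbols, coordinates, exon lengths and GC content came from a GENCODE annotation of GRCm38 (43 of 22298 genes had no match), and promoters from RefSeq (GRCm38.p6).

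Genes kept by filterByExpr were tested with edgeR 4.0.16 in R 4.3.3 (TMM, quasi-likelihood test, two-sided, no covariate, Benjamini-Hochberg over 12888 genes), and a gene was called at an adjusted p under 0.05. Totals were 18542897 to 23645147 counts, and CPM values use these totals multiplied by the TMM factors (0.973 to 1.04). Trends were removed as offsets from a lowess curve (span 0.3) of each library's deviations against exon length and GC content. The alternatives were DESeq2 1.42.0, its size factors, library size only, library sizes without mitochondrial and haemoglobin genes, no filter on low counts or a minimum of 10 in every library, a block for the replicate number, each trend removed, and each library left out in turn. The methods were tested on simulated data.

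The members and lists were chosen with earlier results of these data known. The text names all 10 members, the genes called in each pathway list (at most 4, by the size of the log2 fold change), and genes said to be chosen after their values were seen. Marker lists are described by sums and counts. Ctgf was matched by its synonym Ccn2. The deposited tables of single libraries were not used beyond a check against the table of all libraries.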

Additional observations from a re-analysis of the deposited data

How the results depend on the processing

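At an adjusted p under 0.05, 2001 of all tested genes were higher and 1379 lower. The higher calls were 1280 with DESeq2, 1271 without the length trend, 1091 without the GC content trend, 713 without both (lower calls 778) and 943 without both with the replicate block. Scaling by library size only gave 2242 higher and 859 lower, with the median log2 fold change of all genes at 0.063. Leaving out 1 library gave 1266 to 2254 higher and 527 (without fructose replicate 2) to 1685 lower. Of the 10 genes, 3 were higher, against 1 without the GC content trend, without both trends and without both with the replicate block, and 2 to 3 with a library left out. None was lower, against 1 (Smad6) with no filter on low counts, 1 with the replicate block, and 0 to 1 with a library left out. Of the pathway lists, 11 genes were higher and 3 lower, against 6 higher without both trends, and 0 lower by library size only, 1 with DESeq2, 5 without the length trend and 0 to 4 with a library left out.

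Directions reversed for 3 genes that passed no test. Bmp4 was at 0.057 without the length trend, 0.10 without both, 0.16 without both with the replicate block, and -0.64 to 0.85 with a library left out. Smad1 was at -0.074 without the length trend and -0.018 to 0.11 with a library left out. Id1 was at 0.18 without the length trend, 0.045 without the GC content trend, 0.25 without both and 0.25 without both with the replicate block. The cause of these changes was not tested.

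With the replicate block alone, 2117 genes were higher and 1441 lower, and Smad6 passed (adjusted p = 0.0273). The deviations of same-numbered libraries correlated at -0.027. With 2 libraries per group, this single correlation over genes cannot show whether same-numbered libraries were prepared together. A fit without 1 library keeps a lone library in its group, which is assumed to vary like the other group. Leaving out a replicate ended the calls of Smad5, Hfe2, Twsg1, Gdf5, Msx1, Tgfb2 and Tgfbr1. Bmp4, at 4 to 12 counts, is limited by depth.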

Other observations

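The marker lists of other cell types in the tissue were read for values not yet described. All 10 endothelial markers were detected, with summed levels of 1800 and 1753 CPM in control and 1574 and 1651 CPM in fructose. Of these, 1 was called higher and 2 lower, and endothelial cells are known for the receptor genes Acvrl1 and Eng. Acvrl1, a type I receptor for BMP9, was at 60.1 and 62.1 CPM in control and 56.1 and 52.7 CPM in fructose (log2 fold change -0.17, edgeR adjusted p = 0.166). Eng, its co-receptor endoglin, was at 206 and 229 CPM in control and 184 and 193 CPM in fructose (log2 fold change -0.20, adjusted p = 0.0972). Both genes lay below the control libraries in both fructose libraries, as for 31.6% of all tested genes, and neither passed the test. With the trends removed, Acvrl1 was at -0.033 and Eng at -0.041 on the log2 scale (edgeR adjusted p = 0.848 and 0.811). Both were named after their values were seen. Bambi, which encodes a decoy receptor for BMPs, was at 8.65 and 6.93 CPM in control and 5.26 and 5.84 CPM in fructose. Its log2 fold change of -0.49 did not pass (edgeR adjusted p = 0.0762) and was -0.71 after removal of both trends (adjusted p = 0.0234). Bambi too was named after its values were seen.

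Summed levels of the remaining lists were as follows. Fibroblast and preadipocyte markers summed to 4448 to 5093 CPM in the 4 libraries, macrophage markers to 135 to 177 CPM, Schwann cell and nerve markers to 94.9 to 107 CPM, and smooth muscle and pericyte markers to 479 to 527 CPM. Erythroid markers summed to 19200 and 15290 CPM in control and 11770 and 12140 CPM in fructose, with 5 of 8 called lower and 0 of 8 with the trends removed. Cartilage and bone markers summed to 3.06 to 3.94 CPM and epidermis markers to 2.26 to 5.23 CPM, with Bglap, Ibsp, Matn1, Krt14 and Dsg3 at 0 counts in all 4 libraries. The part of these levels in the results was not tested.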
